A study of Homo sapiens with 15 samples.

Results

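The S100 genes of chromosome 1 encode a family of small calcium-binding proteins, and 8 of them were followed here through 5 groups of SNB19 cells: S100A2, S100A3, S100A4, S100A6, S100A10, S100A11, S100A13 and S100A16. They are 8 of the 18485 gene symbols in the count table. The members were chosen by symbol and by having been counted in more than a handful of reads, and the family was taken up after S100A6, S100A4 and S100A2 had been seen to differ between groups of these same libraries. Their differences are therefore given as a description, with p-values adjusted over all 6767 genes tested. S100A3, with 73 reads over all 15 libraries, was the scarcest member. S100A5 and S100A14, with 13 and 6 reads, were the other S100 symbols of this chromosome in the table and lay just outside. All 8 members passed the filter on low counts. S100A3 did so through 2 EV libraries and 1 SF-mut library, where it was highest, so its difference from FL had to be in that direction and supports nothing.

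SNB19 is an established human glioblastoma line. The cells were transduced with lentivirus carrying ZBTB18, a zinc finger repressor of transcription, in its full-length form (FL), with a mutation in the full-length form (FL-mut), as the short form Nte (SF-Nte) or with a mutation in that short form (SF-mut), or with the empty vector pCHMWS (EV). All groups were grown in DMEM with serum, and each had 3 libraries of polyadenylated RNA read as PCR-amplified cDNA on the Oxford Nanopore platform. The labels give neither the mutated residues nor the time after transduction, and do not say whether the 3 libraries of a group came from separate cultures, so p-values measure the spread between these libraries, which may be technical.

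Total counts ran from 315693 to 1930245 per library and were lower in both short-form groups than in the others. ZBTB18 reached 635, 3067 and 623 CPM (reads of a gene scaled to a library of standard size, with TMM factors) for FL, 907, 2800.0 and 6858 for FL-mut, 470.0, 199 and 234 for SF-Nte, 853, 3631 and 896 for SF-mut and 7.0, 4.37 and 7.12 for EV. The construct was thus read in every transduced library, at levels that differed up to several-fold among libraries of 1 group. Of the glioma markers, VIM, CD44, NES and SOX2 were tested, GFAP was at 0 to 7.53 CPM, S100B, the astrocyte S100 gene of another chromosome, had 8 reads in all, and OLIG2 was not among the symbols analysed here. Summed markers of immune, epithelial and endothelial cells stayed at or below 30.8, 19.3 and 24.2 CPM in every library.

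S100 proteins carry a pair of EF-hand loops that bind calcium, form dimers, and then attach to target proteins such as annexins, myosin and p53. Most of their genes sit in a cluster on human chromosome 1, and several members, S100A4 and S100A6 among them, are known from motile and invasive tumour cells, gliomas included. ZBTB18 represses genes that carry its E-box-like motif, ACATCTG, and is known in glioblastoma for lowering genes of the mesenchymal expression class.

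All 8 genes lie on the minus strand of chromosome 1 (GRCh38, GENCODE 29). S100A6 (ENSG00000197956, chr1:153534599-153536244), S100A4 (ENSG00000196154, chr1:153543613-153550136), S100A3 (ENSG00000188015, chr1:153547329-153549372) and S100A2 (ENSG00000196754, chr1:153561108-153567890) share a stretch of 33.3 kb. S100A16 (ENSG00000188643, chr1:153606886-153613145) and S100A13 (ENSG00000189171, chr1:153618787-153631360) follow it, and S100A10 (ENSG00000197747, chr1:151982915-151994390) and S100A11 (ENSG00000163191, chr1:152032506-152047907) lie apart, with 1486.7 kb between S100A11 and S100A6. The span of S100A4 overlaps that of S100A3 on the same strand with 0 shared exon bases, so reads could be divided between them and both values carry that doubt. S100A13 shares 235 of its 2216 exon bases with S100A1 on the opposite strand. Use of strand in counting is not given in the sources used here, and S100A1 was not among the symbols analysed.

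The 250 bases before the annotated start are shown for the 3 members with the lowest FL levels relative to EV that passed the test, since ZBTB18 binds DNA near the genes it represses; S100A2 has a second annotated start. Sequences are RefSeq, GRCh38.p14, minus strand, and capitals mark CATCTG on either strand (printed as CAGATG where it lies on the other strand) and TATAA on the strand shown.
S100A6, chr1:153535992-153536241: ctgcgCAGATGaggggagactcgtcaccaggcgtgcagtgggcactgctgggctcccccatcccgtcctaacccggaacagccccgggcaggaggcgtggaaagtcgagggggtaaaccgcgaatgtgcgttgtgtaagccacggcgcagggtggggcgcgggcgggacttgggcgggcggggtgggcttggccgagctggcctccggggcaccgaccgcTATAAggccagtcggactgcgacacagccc
S100A4, chr1:153545807-153546056: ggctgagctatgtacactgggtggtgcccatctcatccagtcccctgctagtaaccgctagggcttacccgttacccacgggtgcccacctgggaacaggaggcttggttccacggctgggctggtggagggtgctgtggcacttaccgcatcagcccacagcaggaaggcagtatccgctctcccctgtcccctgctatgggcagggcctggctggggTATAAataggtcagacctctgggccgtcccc
S100A2 first window, chr1:153565845-153566094: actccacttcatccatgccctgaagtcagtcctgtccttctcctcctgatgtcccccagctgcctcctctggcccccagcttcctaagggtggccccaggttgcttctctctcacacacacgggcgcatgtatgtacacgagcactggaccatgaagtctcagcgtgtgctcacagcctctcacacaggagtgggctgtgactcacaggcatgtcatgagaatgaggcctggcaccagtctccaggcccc
S100A2 second window, chr1:153563888-153564137: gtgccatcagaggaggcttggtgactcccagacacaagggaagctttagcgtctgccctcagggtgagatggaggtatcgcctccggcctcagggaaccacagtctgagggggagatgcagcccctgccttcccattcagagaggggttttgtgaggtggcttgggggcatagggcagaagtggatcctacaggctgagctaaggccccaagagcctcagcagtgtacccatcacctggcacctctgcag
All 8 genes matched the RefSeq table, with 12 windows among them. CATCTG or its complement CAGATG was found in 1 of the 12 windows, that of S100A6, 245 bases before the start. It occurs in 12.157% of 34943 RefSeq windows of this length. The longer ACATCTG (or CAGATGT), which contains it, was in 0 of the 12 windows and in 2.83% of all windows. TATAA was found in the windows of S100A4, S100A6 and S100A13, 31, 30 and 29 bases before the start, and in 13.677% of all windows. These are letter matches, not measured binding. The windows shown lie inside the GENCODE 29 spans of their genes given above, as the RefSeq starts differ from those of GENCODE. Bases before the GENCODE starts of S100A6, S100A4 and S100A2 were not searched.

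S100A6, or calcyclin, which binds the calcyclin-binding protein and annexins, was the most abundant member. Its level was 1931, 1208 and 1109 CPM for FL, 5698, 5984 and 4106 for FL-mut, 9239.6, 7727 and 8726 for SF-Nte, 7781, 8008 and 8843 for SF-mut and 12727, 13753 and 13131 for EV. The groups formed 4 steps without overlap, with FL lowest, FL-mut next, both short forms together and EV highest. Per kilobase of transcript, the EV mean was 19619 CPM per kb for S100A6, against 2337 for S100A11, 1237 for S100A13, 1073 for S100A2, 739 for S100A4, 249 for S100A16, 68.6 for S100A10 and 14.4 for S100A3.

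S100A4, also called metastasin, binds the heavy chain of non-muscle myosin and is tied to cell motility. It was read at 13.2, 7.46 and 36.8 CPM for FL, 53.5, 53.2 and 36.9 for FL-mut, 559, 534 and 393 for SF-Nte, 310.5, 450.0 and 330.1 for SF-mut and 238, 354 and 671 for EV. Both full-length groups were far below the other 3, whose libraries overlapped, and the third FL library, the highest of its group, lay just under the lowest FL-mut library.

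S100A2, best known from epithelial cells, where it binds p53, gave 47.9, 3.73 and 60.0 CPM for FL, 86.9, 80.4 and 49.4 for FL-mut, 836, 595 and 403 for SF-Nte, 389, 542 and 601 for SF-mut and 441, 597 and 978 for EV. It split the groups as S100A4 did, with the second FL library, at 3 reads, far below its replicates. FL and FL-mut overlapped, and so did SF-Nte, SF-mut and EV.

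S100A3, a cysteine-rich member abundant in hair, was scarce. It had 0, 0 and 0 reads for FL, 2, 1 and 1 for FL-mut, 5, 2 and 0 for SF-Nte, 6, 4 and 1 for SF-mut, and 30, 17 and 4 for EV. Pooled over the libraries of a group it stood at 0 CPM in FL (3 reads, taken here as the limit that a count of 0 allows, would be 0.915 CPM), 1.24 in FL-mut (95% Poisson interval 0.337 to 3.17), 4.82 in SF-Nte (1.94 to 9.93), 7.72 in SF-mut (3.86 to 13.8) and 11.3 in EV (8.45 to 14.9). Against that floor of 3 reads over the group, S100A3 was at least 12.4-fold lower in FL than the pooled EV value. This fold leaves out the interval of the EV value. Intervals and floors cover counting error only, as PCR copies are not independent molecules.

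S100A16 is a widely expressed member. Its level was 75.6, 36.1 and 17.4 CPM for FL, 298, 678 and 290.5 for FL-mut, 212, 184 and 169 for SF-Nte, 211, 401 and 131 for SF-mut and 387, 211 and 177 for EV. FL lay below every other group, and FL-mut had the highest mean, overlapping EV and SF-mut.

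S100A10, or p11, does not bind calcium itself and joins annexin A2 at the membrane. It was at 34.7, 42.3 and 21.3 CPM for FL, 70.7, 575 and 109.9 for FL-mut, 23.1, 32.0 and 54.8 for SF-Nte, 85.0, 666 and 53.3 for SF-mut and 115, 26.2 and 46.3 for EV. The second library of FL-mut and the second of SF-mut stood far above all others. S100A11, the partner of annexin A1, was at 1089, 1444 and 1098 CPM for FL, 920.0, 2154 and 1502 for FL-mut, 1479, 1270.3 and 1407 for SF-Nte, 1185, 2293 and 1521 for SF-mut and 1553, 1406 and 1206 for EV. The same pair of libraries were its highest, and no neighbours in the order of its 5 group means were separated beyond their spread.

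S100A13, which takes part in the export of FGF1 and interleukin-1 alpha without a signal peptide, was at 451, 899 and 692 CPM for FL, 297, 469 and 535 for FL-mut, 679.9, 769.7 and 764 for SF-Nte, 338, 524 and 642 for SF-mut and 552, 524 and 1013 for EV. The SF-Nte libraries were above all SF-mut and FL-mut libraries, and groups next to each other in the order of means overlapped.

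**Figure D1:**
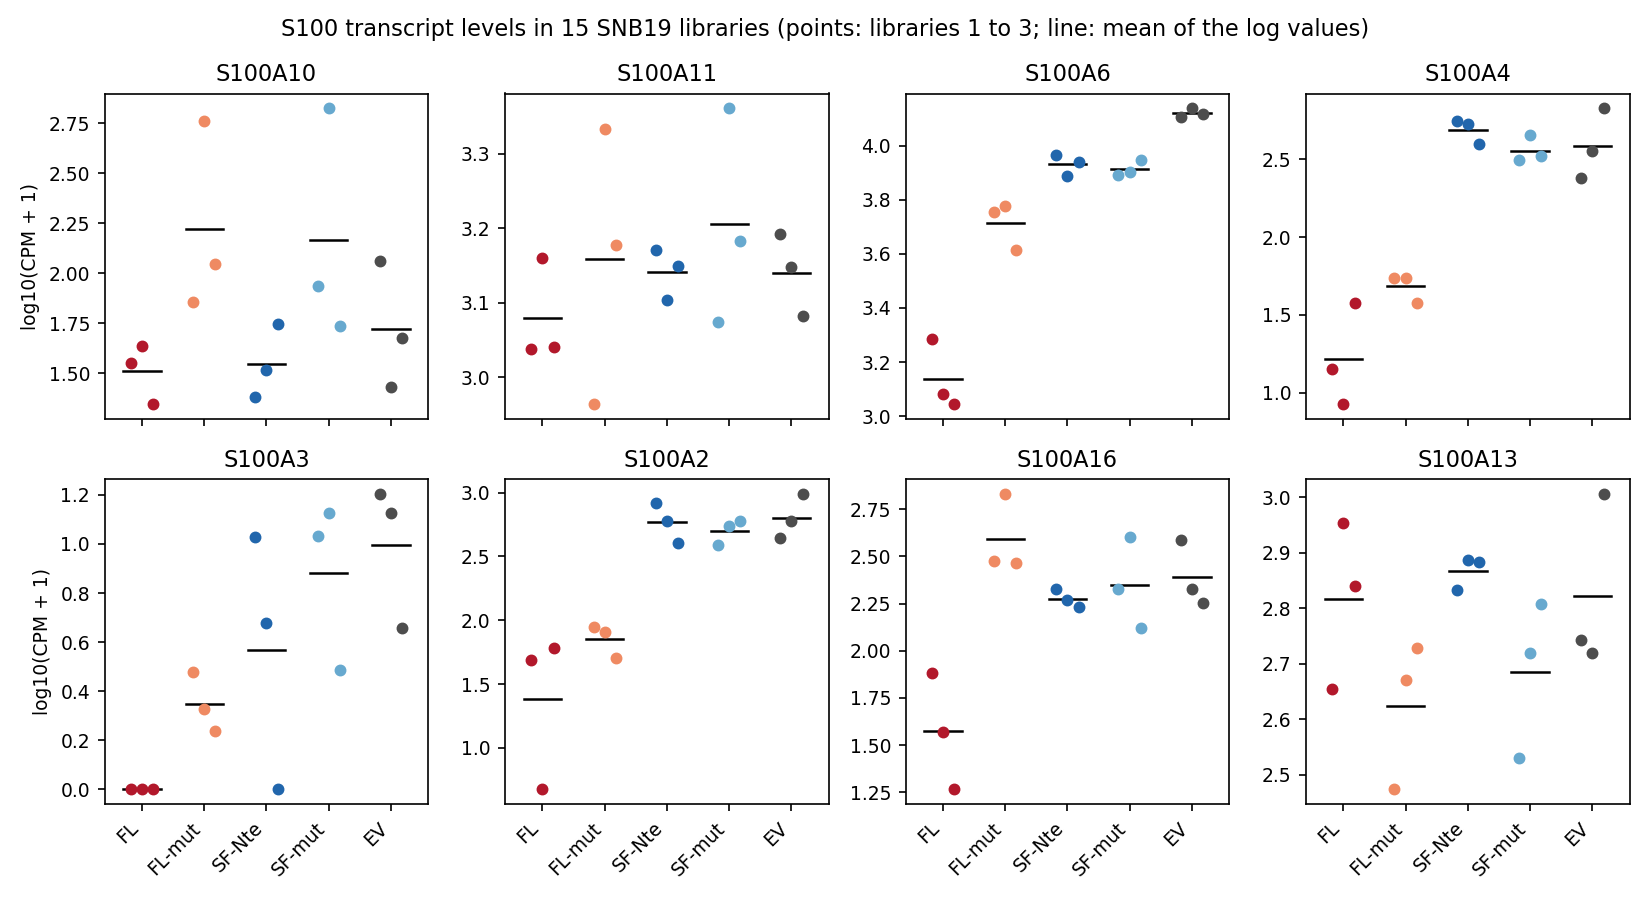
Level of each member in all 15 libraries, as log10(CPM + 1) on the vertical axis (a log scale that differs between panels), with 1 point per library and a line at the mean of the log values of each group. S100A6, S100A4 and S100A2 are low in FL and FL-mut, S100A16 is low in FL alone, and S100A10, S100A11 and S100A13 show no such split.

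With full-length ZBTB18, 3 of the 8 members fell relative to empty vector: S100A4, S100A2 and S100A6. Over all genes tested, 0.163% were called lower in this comparison and 0.31% in either direction. S100A6 averaged 1416 ± 449 CPM in FL and 13204 ± 517 CPM in EV (SD, n = 3 each), 9.32-fold lower. S100A4 averaged 19.1 ± 15.5 CPM in FL and 421 ± 224 CPM in EV. S100A2 averaged 37.2 ± 29.6 CPM in FL and 672 ± 277 CPM in EV.

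By edgeR's quasi-likelihood test with Benjamini-Hochberg adjustment, the log2 fold change of FL against EV was -3.22 ± 0.24 (SE) for S100A6 (adjusted p = 3.1e-06), -4.44 ± 0.53 for S100A4 (0.00073) and -4.15 ± 0.63 for S100A2 (0.0084). In bulk RNA, fewer cells with a transcript and less transcript per cell cannot be told apart. All 3 passed in each of the 6 fits that left out 1 library, with the S100A4 value at -5.31 without FL replicate 3. In a fit of the FL and EV libraries alone S100A2 lost its call (adjusted p = 0.064). S100A16 averaged 43.0 ± 29.7 CPM in FL and 259 ± 113 CPM in EV, its libraries did not overlap, and its log2 fold change of -2.57 ± 0.55 did not pass (adjusted p = 0.067). It passed in the fit with the replicate number as a block over all 15 libraries, at -2.65 (adjusted p = 0.026), and without FL replicate 1, at -3.32 (0.024). DESeq2 also called it (adjusted p = 0.0011), as did edgeR with no filter (1.6e-06) and with a filter of 30 counts in 3 libraries (0.044). These 3 fits called 140 of 6767, 202 of 18485 and 28 of 4012 genes, against 21 of 6767 by the fit used. S100A3 aside, FL libraries lay below all EV libraries for 4 of 7 members, against 8.17% of all genes. S100A10, S100A11 and S100A13 overlapped and did not pass, with 95% intervals of the log2 difference of -2.84 to 0.96, -0.82 to 0.43 and -0.75 to 0.68. The median log2 fold change over the 7 members other than S100A3 was -2.57, against -0.01 over all genes. The summed glioma markers were also lower, at 197 to 442 CPM in FL and 465 to 1009 CPM in EV. Of the 7 on the list 4 were tested and edgeR called 0. At an unadjusted p under 0.05 there were 3, VIM, NES and CD44, against 517 of all 6767 genes. NES, at 1.39 to 4.84 CPM in FL, passed the filter on low counts only through groups where it was higher, so its difference supports nothing. The part of these markers in the result was not tested.

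With mutated full-length ZBTB18 the same 3 genes were called lower than in EV, against 0.103% of all genes called lower and 0.192% in either direction. S100A6 averaged 5263 ± 1012 CPM in FL-mut and 13204 ± 517 CPM in EV, 2.51-fold lower, a log2 fold change of -1.33 ± 0.22 (adjusted p = 0.021). S100A4, at 47.9 ± 9.52 CPM in FL-mut and 421 ± 224 CPM in EV, had -3.14 ± 0.49 (0.021), and S100A2, at 72.2 ± 20.01 CPM in FL-mut and 672 ± 277 CPM in EV, had -3.22 ± 0.60 (0.043). These were the 3 of 7 members, S100A3 aside, whose FL-mut libraries lay below all EV libraries, against 9.07% of all genes.

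The FL-mut calls depended on the fit. S100A6 lost its call without FL-mut replicate 1 or 3 (adjusted p = 0.084 and 0.16) and without EV replicate 2 or 3 (0.11 and 0.10). S100A4 lost it without FL-mut replicate 1 or 3 (0.084 and 0.076) and without EV replicate 3 (0.086). S100A2 lost it without FL-mut replicate 1, 2 or 3 (0.088, 0.082 and 0.27) and without EV replicate 2 or 3 (0.11 and 0.17), and also with DESeq2's size factors (0.053) or total counts only (0.051) for scaling. In a fit of the FL-mut and EV libraries alone S100A6 and S100A4 lost theirs (0.13 and 0.075). Their log2 fold changes stayed between -1.46 and -1.23, -3.43 and -2.68, and -3.46 and -2.90 in these fits, in the order S100A6, S100A4, S100A2. S100A16 averaged 422 ± 222 CPM in FL-mut and 259 ± 113 CPM in EV and did not pass (95% interval -0.38 to 1.79). S100A10 did not pass either, at 2.0 ± 0.89 (adjusted p = 0.45) and 0.50 without FL-mut replicate 2, though it was called with no filter on low counts (0.011). Without that filter 219 of 18485 genes were called, against 13 of 6767 by the fit used. The comparisons with EV share the 3 EV libraries and are set side by side, not counted as independent of each other.

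With the short forms, 0 of 8 members passed against EV, either for SF-Nte (0.0443% of all genes called) or for SF-mut (0.0591%). At an unadjusted p under 0.05, 1 of 8 members differed in SF-Nte and 2 in SF-mut, and DESeq2 called 0 in both. Over all 6767 genes, 489 and 363 had an unadjusted p under 0.05. S100A6 averaged 8564 ± 769 CPM in SF-Nte, 8211 ± 559 in SF-mut and 13204 ± 517 in EV. All short-form libraries were below all EV libraries for this 1 member of 8, against 11.3% of all genes in SF-Nte and 7.68% in SF-mut, at log2 fold changes of -0.62 ± 0.22 for SF-Nte (adjusted p = 0.60) and -0.69 ± 0.22 for SF-mut (0.60). The 95% interval of the log2 difference was -0.71 to 1.19 for S100A4 and -1.31 to 1.04 for S100A2 in SF-Nte, and -1.16 to 0.74 and -1.57 to 0.78 in SF-mut. These intervals do not reach the values seen for the same genes with FL. S100A10 stood at 2.08 ± 0.90 in SF-mut (adjusted p = 0.89) and at 0.13 without SF-mut replicate 2.

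**Figure D2:**
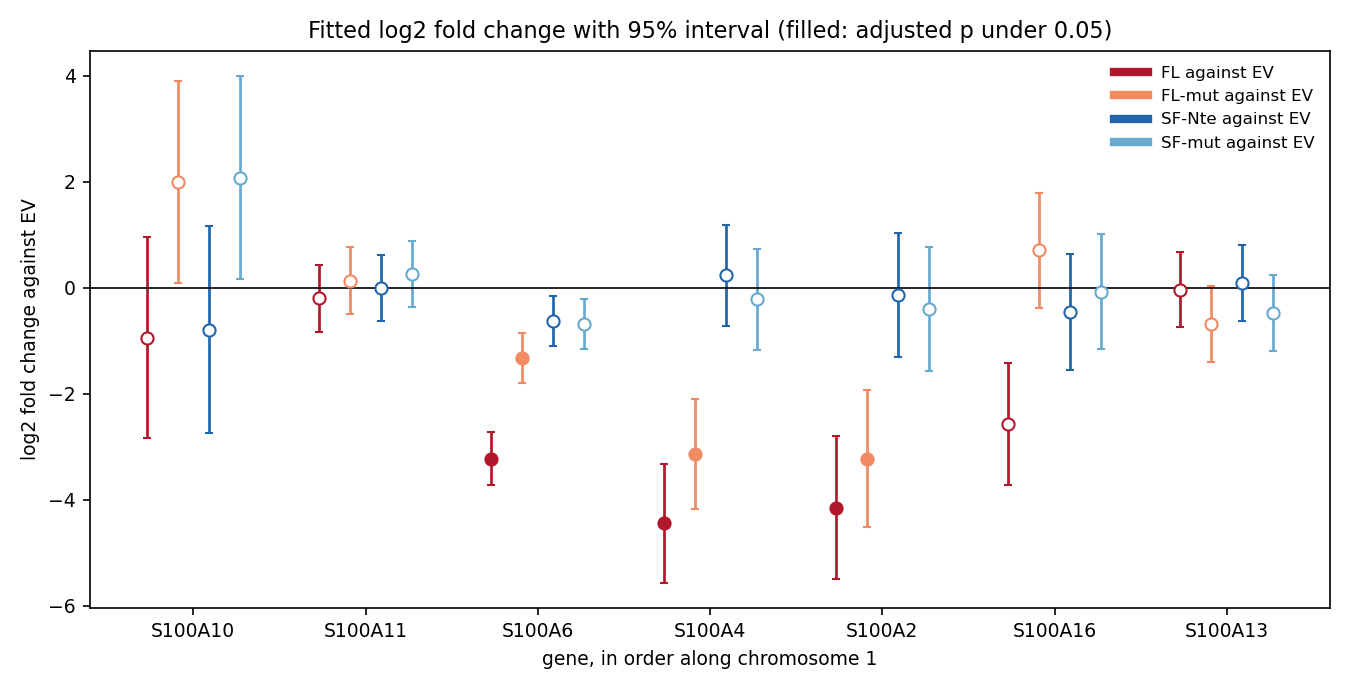
Log2 fold change against EV on the vertical axis for 7 members in order along the chromosome, 1 colour per construct, with 95% intervals from the edgeR fit and filled points where the adjusted p was under 0.05; S100A3 is left out because it had 0 reads in FL. The filled points are S100A6, S100A4 and S100A2 in FL and FL-mut, and the short-form intervals of S100A4 and S100A2 span 0.

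The mutation was compared within the full-length form. S100A6 and S100A16, 2 of the 8 members, were higher in FL-mut than in FL, where 0.0591% of all genes were called higher and 0.0887% in either direction. S100A6 averaged 5263 ± 1012 CPM in FL-mut and 1416 ± 449 CPM in FL, 3.71-fold higher, with a log2 fold change of 1.89 ± 0.23 (adjusted p = 0.0019) and a call in all 6 fits without 1 library, but not in a fit of the FL-mut and FL libraries alone (0.14). S100A16 averaged 422 ± 222 CPM in FL-mut and 43.0 ± 29.7 CPM in FL, a log2 fold change of 3.27 ± 0.56 (0.030). It lost the call without FL replicate 2 or 3 (adjusted p = 0.18 and 0.16) and without FL-mut replicate 2 or 3 (0.15 and 0.052), and stood at 3.97 without FL replicate 1. It also lost the call in the fit of the 2 groups alone (0.14) and with DESeq2's size factors (0.053). The summed glioma markers were at 576 to 871 CPM in FL-mut and 197 to 442 CPM in FL, without overlap. Of the 7 on the list 4 were tested and 0 were called by edgeR. At an unadjusted p under 0.05 there were 2, CD44 and NES, against 821 of all 6767 genes. NES again passed the filter on low counts only through groups where it was higher than in FL, so its difference supports nothing. The part of these markers in the result was not tested.

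S100A4 did not pass between FL-mut and FL. Its log2 fold change was 1.305 ± 0.49 (adjusted p = 0.33), with libraries that did not overlap by a narrow margin, 36.9 CPM in the lowest FL-mut library and 36.8 CPM in the highest FL library. S100A2 overlapped (95% interval -0.30 to 2.16). S100A10 had its 3 FL-mut libraries above the FL libraries and a log2 fold change of 2.94 ± 0.94 that did not pass edgeR's test (0.31), and 1.47 without FL-mut replicate 2. It passed by DESeq2 (adjusted p = 0.049) and with no filter on low counts (2.3e-06). These fits called 116 of 6767 and 348 of 18485 genes, against 6 of 6767 by the fit used. S100A3 aside, FL-mut libraries were above all FL libraries for 4 of 7 members, against 8.97% of all genes.

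Within the short form, 0 of 8 members passed between SF-mut and SF-Nte by edgeR's test, which called 0 genes in all (0% of those tested; 564 at an unadjusted p under 0.05, and 1 of the members, S100A10). DESeq2 called 0 members. S100A6 averaged 8211 ± 559 CPM in SF-mut and 8564 ± 769 CPM in SF-Nte, with a 95% interval of the log2 difference of -0.53 to 0.40. S100A13 had its SF-mut libraries below its SF-Nte libraries, as 6.62% of all genes did, at -0.56 ± 0.34 (adjusted p = 0.69). S100A10 stood at 2.87 ± 0.96 (0.57), and at 0.92 without SF-mut replicate 2, and was called with no filter on low counts (adjusted p = 5.7e-05). Without that filter 193 of 18485 genes were called, against 0 of 6767 by the fit used. ZBTB18 itself was at 853 to 3631 CPM in SF-mut and 199 to 470.0 CPM in SF-Nte, without overlap. Its log2 fold change was 2.57 ± 0.77 (edgeR, adjusted p = 0.57), and its part in the result was not tested.

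The difference between the mutation's effect in the full-length form and in the short form was tested directly, as (FL-mut minus FL) minus (SF-mut minus SF-Nte). S100A6 passed, at 1.95 ± 0.31 on the log2 scale (adjusted p = 0.043), 1 of 8 members against 0.0296% of all genes. It was called in 1 of 12 fits that left out 1 library, that without FL replicate 1 (adjusted p = 0.0060). In the other 11 fits its adjusted p lay between 0.070 and 0.21, while the value stayed between 1.83 and 2.13. The call was also lost with total counts only (0.087) and in a fit of the 4 groups alone (0.11). S100A16 stood at 2.89 ± 0.75 (adjusted p = 0.64) and S100A4 at 1.75 ± 0.66 (0.98), and neither passed, though S100A16 was called with no filter on low counts (0.0030). Without that filter 49 of 18485 genes were called, against 2 of 6767 by the fit used. ZBTB18 was higher in SF-mut than in SF-Nte without overlap, while its FL-mut and FL libraries overlapped. The part of this in the S100A6 difference was not tested. Short-form libraries are listed together on a sample sheet of their own. Handling and form therefore cannot be told apart in this difference or in any comparison of a short-form group with FL, FL-mut or EV. On that sheet barcode names of SF-mut carry a suffix and those of SF-Nte do not. Whether these groups were handled alike is not stated, so handling and mutation cannot be told apart between SF-mut and SF-Nte either.

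Between the unmutated forms, S100A6, S100A4 and S100A2 were higher in SF-Nte than in FL, 3 of 8 members, against 0.488% of all genes called higher and 1.06% in either direction. S100A6 averaged 8564 ± 769 CPM in SF-Nte and 1416 ± 449 CPM in FL, a log2 fold change of 2.60 ± 0.23 (adjusted p = 2.3e-05). S100A4 averaged 495 ± 89.2 CPM in SF-Nte and 19.1 ± 15.5 CPM in FL, 4.68 ± 0.53 on the log2 scale (0.00043) and 5.53 without FL replicate 3. S100A2 averaged 611 ± 217 CPM in SF-Nte and 37.2 ± 29.6 CPM in FL, 4.01 ± 0.63 (0.010). The 3 genes passed in all 6 fits without 1 library. S100A16, at 2.11 ± 0.54, did not pass edgeR's test (0.086). It passed by DESeq2 (adjusted p = 0.014), with no filter on low counts (0.00068), in the fit of SF-Nte and FL alone (0.043) and without FL replicate 1 (0.038, at 2.84). The first 3 of these fits called 296 of 6767, 301 of 18485 and 130 of 4432 genes, against 72 of 6767 by the fit used. SF-Nte libraries were above all FL libraries for these 4 members, of 7 without S100A3, against 9.86% of all genes. ZBTB18 itself was at 199 to 470.0 CPM in SF-Nte and 623 to 3067 CPM in FL, without overlap. The summed glioma markers were at 847 to 1009 CPM in SF-Nte and 197 to 442 CPM in FL, with VIM called higher (1.75 ± 0.38, adjusted p = 0.036). The part of either in the result was not tested.

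Between the mutated forms, S100A4 was higher in SF-mut than in FL-mut, 1 of 8 members, against 0.0443% of all genes called higher and 0.163% in either direction. It averaged 364 ± 75.5 CPM in SF-mut and 47.9 ± 9.52 CPM in FL-mut, a log2 fold change of 2.92 ± 0.49 (adjusted p = 0.027). The call was lost without FL-mut replicate 1 or 3 (0.090 and 0.15) and without SF-mut replicate 2 or 3 (0.073 and 0.16), and in a fit of the 2 groups alone (0.10). S100A2, at 2.82 ± 0.60 (0.091), and S100A6, at 0.64 ± 0.22 (0.31), had SF-mut libraries above all FL-mut libraries and did not pass edgeR's test. S100A2 passed by DESeq2 (adjusted p = 0.00026) and with no filter (9.2e-08). These fits called 117 of 6767 and 134 of 18485 genes, against 11 of 6767 by the fit used. With S100A4, the members whose SF-mut libraries lay above all FL-mut libraries were 3 of 7, S100A3 aside, against 5.51% of all genes.

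The members made up different shares of the libraries. Their summed reads were 0.297% to 0.377% of all counts in FL, 0.685% to 1.02% in FL-mut, 1.01% to 1.12% in SF-Nte, 1.06% to 1.33% in SF-mut and 1.52% to 1.69% in EV. The groups did not overlap except SF-Nte with SF-mut and FL-mut with SF-Nte, and S100A6 alone gave 33.2% to 53.0% of the members' reads in FL and 76.2% to 81.5% in EV.

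Ratios within a library do not depend on its scaling. S100A6 had 1.77, 0.84 and 1.01 reads per S100A11 read for FL, 6.19, 2.78 and 2.73 for FL-mut, 6.25, 6.08 and 6.20 for SF-Nte, 6.57, 3.49 and 5.81 for SF-mut and 8.20, 9.78 and 10.9 for EV. FL was lowest and EV highest, with the 3 construct groups between them overlapping. S100A4 had 0.68, 0.62 and 3.32 reads per 100 S100A6 reads for FL, 0.94, 0.89 and 0.90 for FL-mut, 6.05, 6.92 and 4.51 for SF-Nte, 3.99, 5.62 and 3.73 for SF-mut and 1.87, 2.57 and 5.11 for EV. The FL-mut libraries lay below all EV and short-form libraries in this ratio, whereas the third FL library reached into the EV range.

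**Figure D3:**
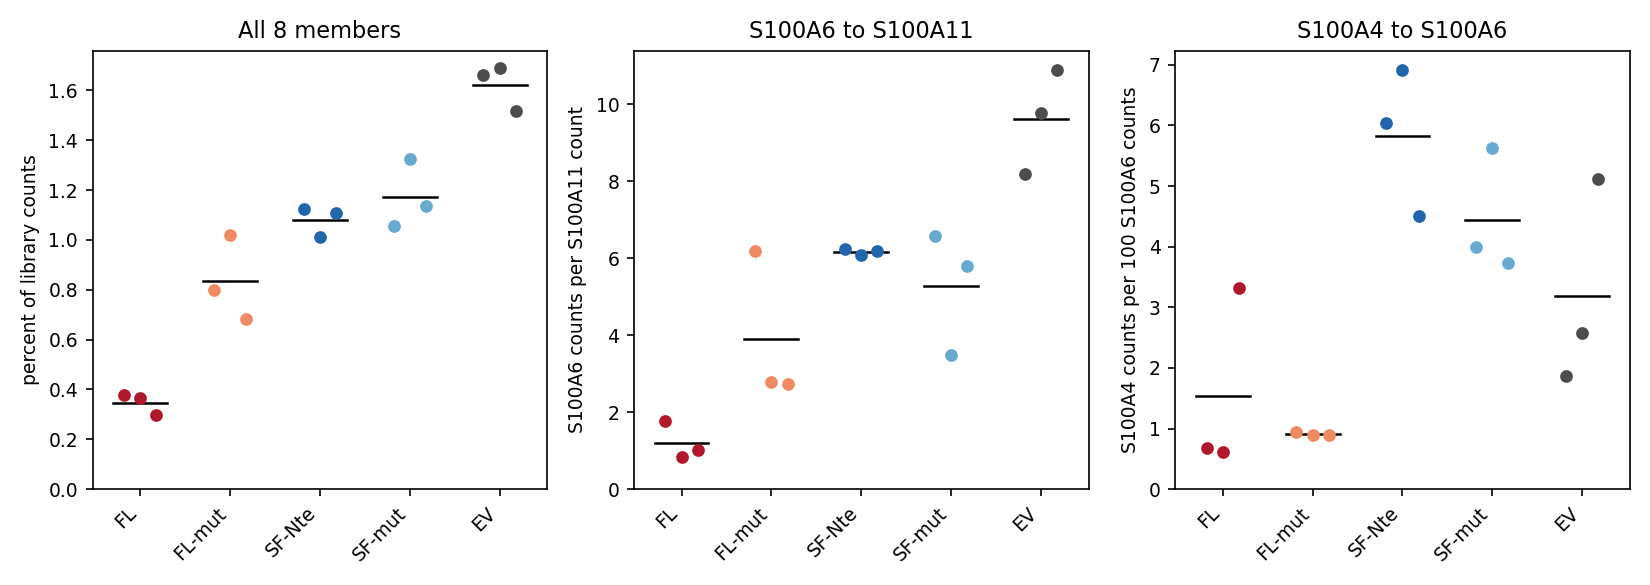
Left, summed reads of the 8 members as a percent of library counts; middle, S100A6 reads per S100A11 read; right, S100A4 reads per 100 S100A6 reads, on linear axes from 0, with 1 point per library and a line at the group mean. FL is lowest and EV highest in the left and middle panels, and both short forms lie above both full-length groups in the right panel.

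Over the 15 libraries, S100A2 and S100A4 had a Pearson r of 0.97 between their log2 CPM, S100A4 and S100A6 one of 0.87, and S100A2 and S100A6 one of 0.87. S100A10 and S100A11 had 0.73, S100A6 and S100A16 0.75, and S100A13 ranged from -0.41 to 0.19 with the others. These are descriptions over libraries that share groups and depth. In the second FL-mut and SF-mut libraries, the ones high in S100A10 and S100A11, deviations from the group means over 3799 genes were correlated at 0.58, beside 0.48 for the first and 0.066 for the third libraries of these groups. The part of this in the S100A10 values was not tested.

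The genes next to the members were read as well. Of the 13 other tested genes within 500 kb of a member, 0 passed edgeR's test in any of the 9 comparisons. At an unadjusted p under 0.05 the count was at most 2 of 13, in SF-Nte against EV, and 0 in FL against EV. Over all 6767 genes it was 489 and 517. DESeq2 called 0 except JTB in SF-Nte against FL, where it called 296 of all 6767 genes. Their log2 fold changes of FL against EV ran from -0.79 to 0.78, with a median of -0.27, and those of FL-mut against FL from -0.26 to 1.81, with a median of 0.40.

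**Figure D4:**
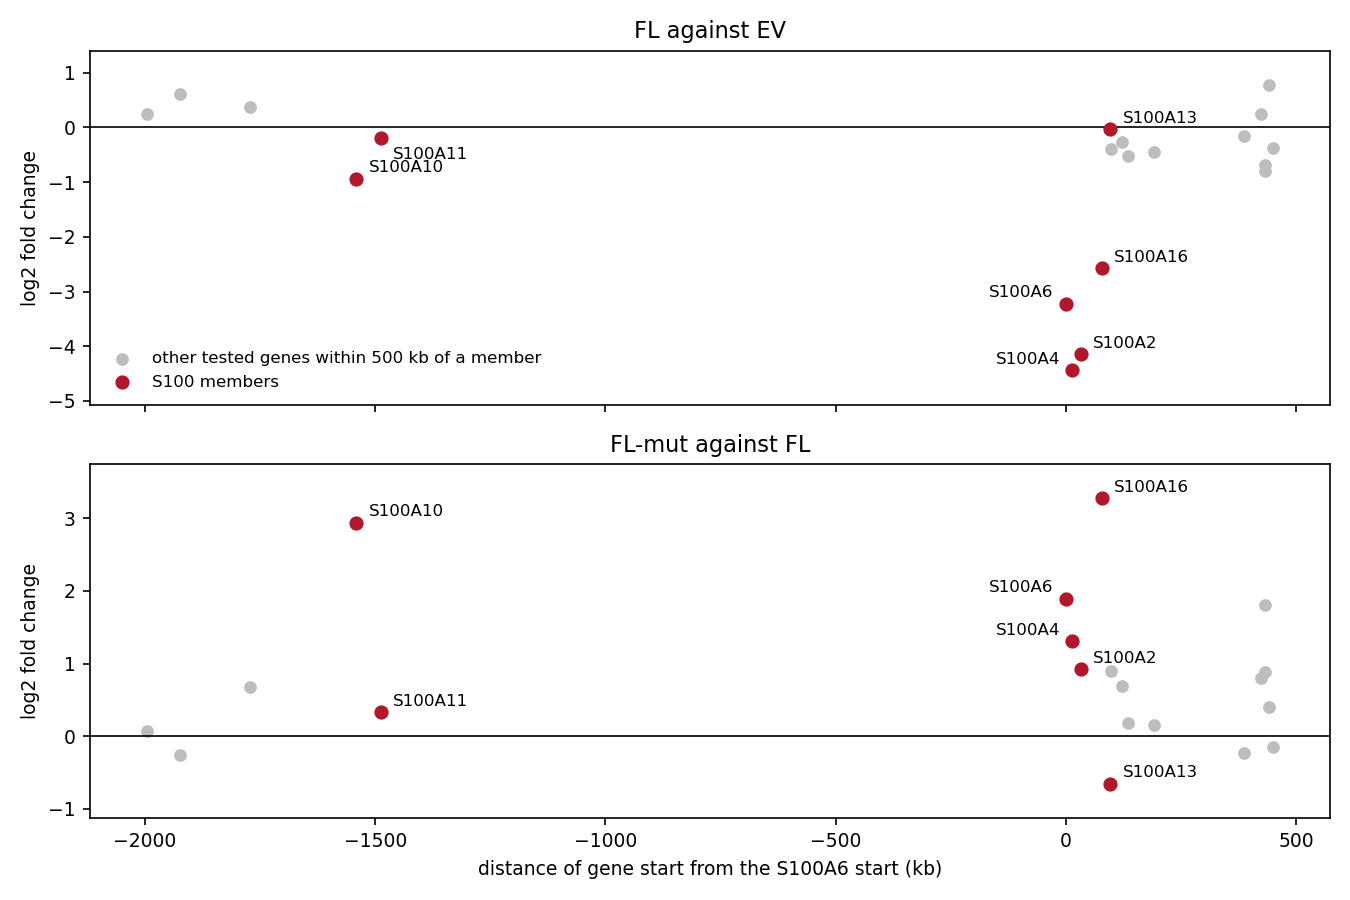
Log2 fold change on the vertical axis against the distance in kb of each gene's start from that of S100A6, for FL against EV (top) and FL-mut against FL (bottom), with S100 members in red and other tested genes within 500 kb in grey; S100A3 is left out because of its 0 reads in FL. In the top panel S100A6, S100A4, S100A2 and S100A16 lie below every grey gene, which span -0.79 to 0.78.

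Partners of S100 proteins were followed as a list of 27 genes, 24 of them tested. The list was chosen with earlier results of these data known. In FL against EV, 1 of 24 fell, against 0.163% of all genes called lower, and 0 rose. It was ANXA2, the annexin that binds S100A10, S100A4 and S100A6. ANXA2 averaged 8128 ± 641 CPM in FL and 20616 ± 9317 CPM in EV, a log2 fold change of -1.34 ± 0.26 (adjusted p = 0.046). In SF-Nte against FL, 2 of 24 rose, against 0.488% of all genes called higher, and 0 fell. ANXA2 averaged 32937 ± 2977 CPM in SF-Nte and 8128 ± 641 CPM in FL, at 2.02 ± 0.27 (0.0020). PLAU, the urokinase gene, passed (0.045) on 26 reads in SF-Nte and 2 in FL. The ratio was 29.4 after scaling, with a 95% counting interval of 7.35 to 255. With FL at 0 to 1.94 CPM, PLAU passed the filter on low counts only through groups where it was higher, so this difference supports nothing. In the other 7 comparisons edgeR called 0. At most 6 of 24 had an unadjusted p under 0.05, in FL-mut against FL, where 821 of all 6767 genes did. In FL against EV 7 of 24, ANXA1 and PLAU among them, had an unadjusted p under 0.05, where 517 of all 6767 genes did. There DESeq2 called ANXA1 in addition to ANXA2, beside 140 of all 6767 genes. DESeq2 also called ANXA5 in FL-mut against FL and ANXA2 in SF-mut against FL-mut, beside 116 and 117 of all genes. ANXA5 averaged 978 ± 410 CPM in FL-mut and 268 ± 141 CPM in FL, at 1.87 ± 0.43 (edgeR, adjusted p = 0.16). The median log2 fold change of the list was -0.26 in FL against EV and 0.42 in SF-Nte against FL, beside -0.01 and -0.15 over all genes.

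Other EF-hand proteins, the wider family of calcium sensors such as calmodulin, calpain and the regulatory myosin light chains, were a list of 32 genes with 26 tested. By edgeR's test 0 passed in any of the 9 comparisons, with 1 to 8 of 26 at an unadjusted p under 0.05. The lowest count was in SF-mut against EV (363 of all 6767 genes) and the highest in FL-mut against FL (821 of all genes). DESeq2 called SPARC and SDF4 in SF-Nte against FL and SDF4 in the difference of mutation effects, beside 296 and 8 of all 6767 genes. SDF4 had 60 reads in FL, 6 in FL-mut, 17 in SF-mut, 32 in EV and 0 in SF-Nte. It passed the filter on low counts only through groups where it was higher than in SF-Nte, so both SDF4 calls support nothing. The 2 of lowest p in FL against EV were MYL12B, a myosin light chain, at 2865 ± 434 CPM in FL and 1635 ± 177 CPM in EV (log2 fold change 0.81 ± 0.27, adjusted p = 0.33), and NUCB2, a Golgi calcium-binding protein, at 484 ± 213 CPM in FL and 179.7 ± 56.4 CPM in EV (1.43 ± 0.50, 0.35). The list's median in FL against EV was 0.24.

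Among 2075 genes with a mean of at least 50 CPM, those whose log2 CPM followed S100A6 most closely over the 15 libraries were HMGN3 (Pearson r 0.94), CSRP1 (0.92), LGALS1 (0.91), APEX1 (0.89) and EEF1G (0.89). HMGN3 averaged 48.5 ± 12.01 CPM in FL, 235 ± 24.9 in FL-mut, 530.5 ± 140.4 in SF-Nte, 433 ± 70.5 in SF-mut and 438 ± 46.3 in EV. LGALS1, galectin-1, averaged 141 ± 59.3, 1199 ± 696, 1917 ± 69.3, 2992 ± 1353 and 1978 ± 590.2 CPM in the same order of groups. Both were lowest in FL and, unlike S100A6, neither had its highest mean in EV. APEX1 and EEF1G did have it there, as S100A6 did, at 414 and 1337 CPM in EV and 205 and 618 CPM in FL. CSRP1 averaged 5.31 CPM in FL and 118 CPM in both SF-mut and EV. For S100A4 the closest were MT2A (0.96), ANXA2 (0.91), CCL2 (0.91), PPP1CB (0.90) and NNMT (0.89). MT2A, a metallothionein, averaged 334 ± 139 CPM in FL, 618 ± 181 in FL-mut, 1745 ± 350.3 in SF-Nte, 1651 ± 219 in SF-mut and 1354 ± 339.5 in EV, and it too separated the full-length groups from the rest. These values are a description with no test.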

How the data were processed

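The authors deposited whole-number read counts per gene symbol for 15 libraries, not normalised; the build is GRCh38, per the submitters' processing notes. The sources used here do not name the aligner, the counter, its strand setting or the gene models. Per the labels' protocols, Trizol was used for total RNA and beads for mRNA, and libraries were made with Nanopore PCR barcoding and cDNA-PCR kits. PCR can favour short cDNA, such as that of S100 genes, and no molecular identifiers were read.

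Groups and replicate numbers came from the sample titles. The members and lists, the tests and the alternatives were chosen with earlier results of these data known. In edgeR 4.0.16 (R 4.3.3), filterByExpr with a minimum count of 10 and a minimum total of 15 kept 6767 genes and dropped 11718. After TMM scaling, a robust quasi-likelihood model with a coefficient for each group used all 15 libraries (10 residual degrees of freedom); 8 comparisons and 1 interaction were tested at a Benjamini-Hochberg adjusted p of 0.05. CPM values come from the deposited counts, as mean ± SD over the 3 libraries of a group. Standard errors were taken as the size of the log2 fold change over the root of F. Named genes are the members, ZBTB18, list genes that passed (up to 4) or the 2 of lowest p (given for FL against EV alone, or where DESeq2 called them), neighbours that passed by either tool, and the 5 genes most correlated with S100A6 and with S100A4. The scripts were tested on simulated data. Replicates differed by more than sampling noise (chi-square per gene 4.23 to 38.0).

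Total counts set the precision: 1 read is worth more CPM in the shallower short-form libraries. Deviations of same-numbered libraries from their group means, over 3799 genes, were correlated at 0.34, 0.15 and 0.41 between FL and EV, each above 0.1. Between FL and SF-mut, which were not compared, they were correlated at 0.13, 0.11 and 0.27. This likeness rests on the data, and no label explains the numbers. In the other 7 comparisons at least 1 pair fell below 0.1. The fit used has no block. The replicate block was fitted over all 15 libraries and does not pair FL with EV alone. Alternatives were DESeq2's size factors, total counts only, no filter, a filter of 30 counts in 3 libraries, the replicate block, DESeq2 1.42.0, a fit of the compared groups alone and leaving out each library. Positions are from GENCODE 29 and promoter windows from RefSeq (GRCh38.p14). The 2 sample sheets hold no measurements and were not analysed.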

Additional observations from a re-analysis of the deposited data

Results flagged for a closer look

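S100A6 was the single member for which the effect of the mutation differed between the full-length form and the short form by a test of the difference itself. The mutated group minus the unmutated group was 1.89 on the log2 scale for the full-length form (FL-mut against FL) and -0.06 for the short form (SF-mut against SF-Nte), a difference of 1.95 (edgeR's quasi-likelihood test, adjusted p = 0.043). All 3 FL-mut libraries were above all 3 FL libraries, while SF-mut and SF-Nte libraries overlapped. Leaving out 1 library ended the call in 11 of 12 fits. ZBTB18 itself was higher in SF-mut than in SF-Nte without overlap, and its part in the result was not tested.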

How the results depend on the processing

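Of 48 member fold changes recomputed under every alternative (all but those of S100A3 in the comparisons with EV and in FL-mut against FL, and elsewhere S100A6 and the members with separated libraries or an unadjusted p under 0.05), 38 kept their sign. The other 10 were uncalled, at most 0.26 in size on the log2 scale, and remained uncalled where the sign turned. Against EV, S100A13 turned to 0.046 for FL and -0.0013 for SF-Nte with total counts only, and to -0.051 for SF-Nte with no filter. S100A11 for SF-Nte turned to 0.0088 with DESeq2's size factors, 0.049 with a filter of 30 counts in 3 libraries, 0.0049 with the replicate block and 0.0087 by DESeq2, and S100A16 for SF-mut to 0.030 with DESeq2's size factors and 0.033 by DESeq2. S100A6 in SF-mut against SF-Nte turned to 0.091 with total counts only and 0.043 in a fit of these groups alone. Leaving out 1 library gave ranges across 0 against EV: -0.28 to 0.31 for S100A13 in FL, -0.22 to 0.34 for S100A11 in FL-mut, -0.43 to 0.21 for S100A2, -0.053 to 0.72 for S100A4, -0.12 to 0.078 for S100A11 and -0.099 to 0.44 for S100A13 in SF-Nte, and -0.51 to 0.21 for S100A4, -0.059 to 0.34 for S100A11 and -0.61 to 0.33 for S100A16 in SF-mut. Genes of the other lists and neighbours were tested by edgeR and DESeq2 only.

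The number of members called was 3 in FL against EV, 3 in FL-mut against EV, 2 in FL-mut against FL, 3 in SF-Nte against FL, 1 in SF-mut against FL-mut, 1 in the difference of mutation effects and 0 elsewhere. With no filter on low counts it was 5, 4, 3, 4, 2 and 2 in that order, and 1 in SF-mut against SF-Nte. DESeq2 called 4, 3, 3, 4, 2 and 1. DESeq2's size factors left 2 in FL-mut against EV and 1 in FL-mut against FL, and total counts only left 2 in FL-mut against EV and 0 in the difference of mutation effects. The filter of 30 counts gave 4 in FL against EV. Fits of the compared groups alone gave 2, 1, 0, 4, 0 and 0. Leaving out 1 library gave 3 to 4, 0 to 3, 1 to 2, 3 to 4, 0 to 1 and 0 to 1. The replicate block over all 15 libraries gave 4 in FL against EV, S100A16 being added. Where at least 1 same-numbered pair was correlated below 0.1, it gave 4 in SF-Nte against FL (S100A16 at an adjusted p of 0.027). It also gave 2 in FL-mut against EV (S100A2 at 0.066) and changed no other count. The cause was not tested. Calls over all genes, in the order of comparisons above, were 21, 13, 6, 72, 11 and 2 of 6767 by the fit used. They were 202, 219, 348, 301, 134 and 49 of 18485 without a filter. By DESeq2 they were 140, 145, 116, 296, 117 and 8 of 6767. In SF-mut against SF-Nte they were 0, 193 and 4. Total counts only moved the median of all genes in SF-Nte against EV to -0.25, from -0.13. Depth limits S100A3 most, at 0 to 30 reads a library.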
